A study of Mus musculus with 6 samples.

Results

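The bone morphogenetic protein (BMP) pathway was followed here through 38 genes, taken by symbol as ligands, receptors, SMADs, SMURF ligases, extracellular modulators and target genes. All 38 had an identifier among the 55471 in the count tables. The cells were mouse epiblast stem cells, a pluripotent cell type close to the epiblast at gastrulation, which had formed embryoid bodies in serum over 2 days. In the Mixl1 induced group (3 libraries), a line carrying inducible Mixl1 received doxycycline at 1 µg/mL for the last 24 h. In the Mixl1 KO group (3 libraries), the cells are labelled as Mixl1 knockout. The MIXL1 protein is a homeodomain factor made in the primitive streak, where mesoderm and endoderm arise. Both groups came from cultures on irradiated fibroblast feeders that received Activin A (20 ng/mL) and bFGF (10 ng/mL). The labels give neither the promoter of the inducible construct, nor the number of clones, nor whether the KO cells were given doxycycline or come from the same parent line, so that effects of line, drug and Mixl1 cannot be told apart.

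BMP ligands are secreted dimers that bind a complex of type I and type II serine/threonine kinase receptors. The type I receptor phosphorylates SMAD1, SMAD5 and SMAD9, which enter the nucleus with SMAD4 and switch on targets such as the Id genes, while SMAD2 and SMAD3 carry activin, NODAL and TGF-beta signals. Secreted antagonists, inhibitory SMADs and SMURF ubiquitin ligases hold the signal back. In the mouse embryo BMP4 from the extraembryonic ectoderm acts on the proximal epiblast, and the pathway is needed for posterior mesoderm, amnion and germ cell precursors.

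Each library held 17490426 to 21026423 reads on genes. Values are CPM, read counts scaled to a common library size, with TMM factors, and fold changes are induced over KO from an edgeR quasi-likelihood test with Benjamini-Hochberg adjustment over all 15091 genes tested. Mixl1 itself stood at 432.5 ± 7.54 CPM in induced libraries and 39.8 ± 2.96 CPM in KO libraries (SD, n = 3 each). The altered part of the gene is not named, so its KO reads are no check of the label. Of 8 epiblast markers all were tested, 6 being higher and 2 lower, with a summed level of 2470 to 2643 CPM in induced libraries and 2067 to 2271 CPM in KO libraries. They moved in opposite directions, with log2 fold changes of 1.86 for Sox2, 1.61 for Fgf5 and 1.58 for Tdgf1, and of -0.68 for Pou5f1 and -0.53 for Dnmt3b. The labels do not say whether the 3 samples of a group came from separate cultures, so the p-values given here rest on sample-to-sample spread that may be technical.

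Of the 38 genes 36 passed the filter on low counts, 24 were higher and 7 lower in induced libraries, and 5 did not pass an adjusted p of 0.05. This contrast moved much of the transcriptome: 31% of all genes tested were called higher, 31.6% lower and 62.6% in either direction. The share of the tested members called was 86.1%, with 66.7% higher and 19.4% lower. All 3 induced libraries lay above all 3 KO libraries for 24 members and below them for 7, which held for 33.3% and 33.7% of all genes tested. The median log2 fold change of the 36 was 0.31, against 0.00 over all genes tested. Changes of at least 2-fold were called upward for 8 members and downward for 2, where 6.47% and 9.67% of all genes tested passed the same limits. In these bulk samples a difference in the number of cells of a type cannot be told apart from a difference in RNA per cell.

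**Figure D1:**
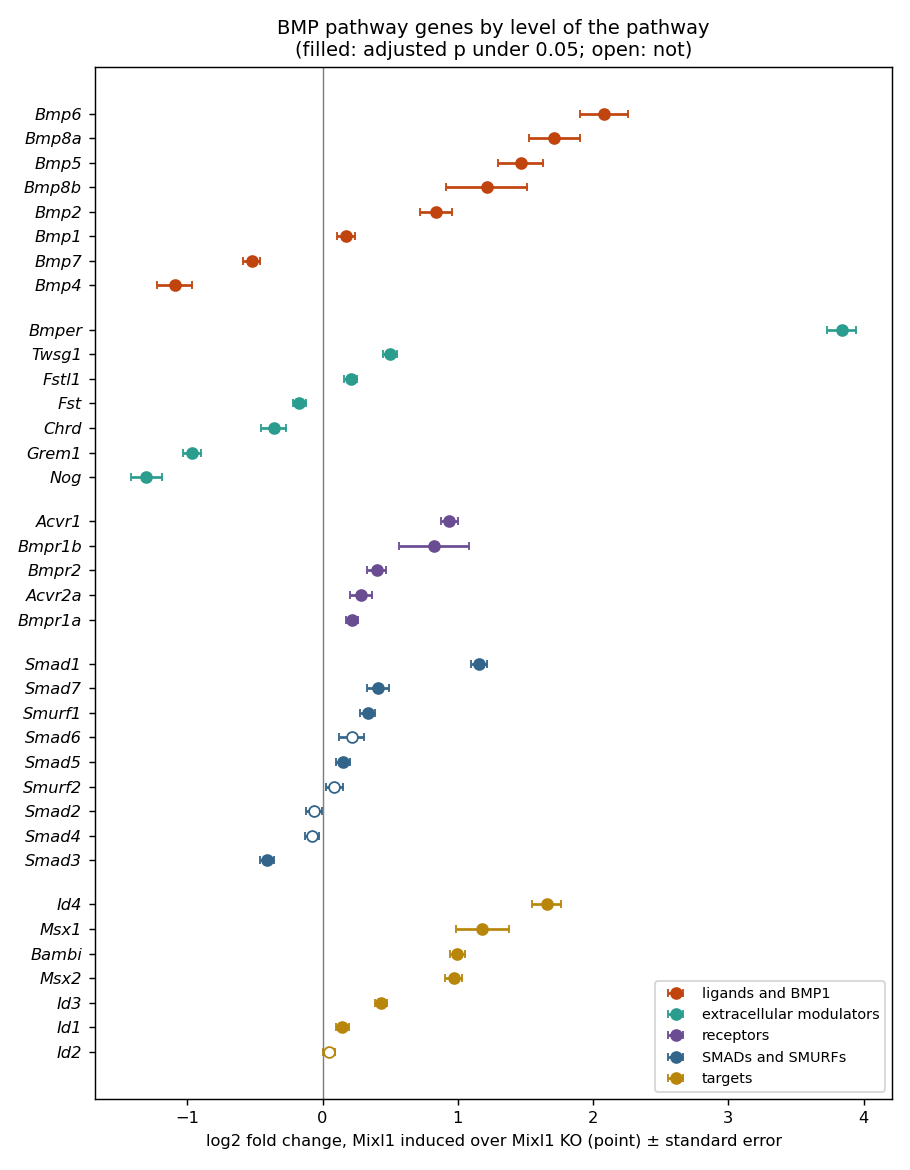
Log2 fold change of the 36 tested BMP pathway genes, Mixl1 induced over Mixl1 KO (x axis; points with standard errors), ordered within 5 levels of the pathway from top to bottom; filled points passed an adjusted p of 0.05. Bmper lies farthest to the right at 3.84 and Nog farthest to the left at -1.30, and all 5 receptor genes lie to the right of 0.

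The ligand genes changed in both directions. The pair with most transcript in KO cells, Bmp4 and Bmp7, fell, and the 5 others, Bmp2, Bmp5, Bmp6, Bmp8a and Bmp8b, rose. Groups did not overlap for any of the 7, as held for 67.1% of all genes tested. Bmp4, the ligand that patterns the proximal epiblast, measured 18.8, 18.3 and 15.7 CPM in induced libraries, against 32.0, 34.8 and 45.8 CPM in KO libraries (log2 fold change -1.09, SE 0.13, edgeR adjusted p = 2.38e-05). The highest induced value thus lay below the lowest KO value, and KO replicate 3 stood above the other two. Bmp7, a broadly expressed ligand that pairs with BMP2 or BMP4 in heterodimers, measured 44.6, 52.4 and 44.1 CPM in induced libraries and 65.7, 65.6 and 71.4 CPM in KO libraries (log2 fold change -0.52, SE 0.065, edgeR adjusted p = 4.69e-07).

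Bmp6 had the largest rise among the ligands. It measured 7.38, 6.63 and 6.50 CPM in induced libraries and 1.90, 1.21 and 1.68 CPM in KO libraries, 4.24-fold higher (log2 fold change 2.08, SE 0.18, edgeR adjusted p = 1.06e-09). BMP6 belongs to the same subgroup as BMP5 and BMP7. Bmp5 gave 6.17, 5.49 and 6.01 CPM in induced libraries and 2.05, 1.98 and 2.37 CPM in KO libraries (log2 fold change 1.46, SE 0.16, edgeR adjusted p = 8e-08). Its exons overlap a gene on the other strand, and without strand information only 267 of its 457 reads were assigned to it, with a log2 fold change of 1.41. Bmp2, which acts in amnion and heart formation, measured 12.0, 13.0 and 10.5 CPM in induced libraries and 6.88, 7.05 and 5.90 CPM in KO libraries (log2 fold change 0.84, SE 0.12, edgeR adjusted p = 2.66e-06).

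Bmp8a and Bmp8b, neighbouring genes on chromosome 4 with closely similar sequence and roles in germ cell formation, had few reads. Per length, Bmp8b was the scarcest of the 7 ligands in both groups, at 0.393 ± 0.0748 RPKM in induced libraries and 0.168 ± 0.0432 RPKM in KO libraries, while Bmp8a ranked after Bmp2 in both (SD, n = 3 each; RPKM is CPM per kilobase of exon). Bmp8a had 291 reads in the induced group and 90 in the KO group (log2 fold change 1.71, SE 0.19), and Bmp8b had 87 and 38 (log2 fold change 1.21, SE 0.30). Since reads that match both copies were dropped, the split between them is uncertain. The other strand of Bmp8b held 1622 reads against 125 on its own, and those averaged 14.6 ± 1.81 CPM in induced libraries and 13.8 ± 0.307 CPM in KO libraries (SD, n = 3 each), with overlap. Bmp1, despite its name, encodes a protease that cleaves procollagen and chordin. It rose slightly by the test, to 102.2 ± 8.51 CPM in induced libraries against 90.6 ± 7.85 CPM in KO libraries (SD, n = 3 each; log2 fold change 0.18, edgeR adjusted p = 0.0278), but the libraries overlapped. The call was lost without KO replicate 1 or 3 or induced replicate 1 or 2, with edgeR adjusted p of 0.1, 0.103, 0.158 and 0.0643 and log2 fold changes of 0.14, 0.13, 0.11 and 0.18; over all alternatives the adjusted p ran from 0.00168 to 0.158.

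To compare genes, levels were divided by exon length in this way. The sum over the 7 ligands was 26.2 to 30.4 RPKM in induced libraries and 34.3 to 41.8 RPKM in KO libraries, without overlap. Bmp4 supplied 27.3 ± 1.15% of that sum in induced libraries and 44.7 ± 3.76% in KO libraries (SD, n = 3 each). Bmp2 supplied 11.6 ± 0.387% and 5.07 ± 0.955%, Bmp8a 7.44 ± 0.717% and 1.75 ± 0.053%, and Bmp6 6.15 ± 0.485% and 1.11 ± 0.279%, each in induced and then KO libraries. In KO libraries the levels of Bmp7 and Bmp4 were not separated, at 16.8 ± 0.83 and 16.7 ± 3.25 RPKM. In induced libraries Bmp7 led at 11.7 ± 1.16 RPKM, followed by Bmp4 at 7.82 ± 0.739 RPKM and Bmp2 at 3.33 ± 0.351 RPKM, each separated from the next. The share of Bmp7, which had most reads, was 40.9% in induced libraries and 45.5% in KO libraries and overlapped between groups (exact two-sided permutation test, p = 0.2; 0.3 adjusted over 9 families; 0.1 is the smallest p that 3 against 3 allows). Without division by length the groups did not overlap: Bmp7 then made up 46.3% to 51.2% of the ligand CPM in induced libraries and 55.1% to 59.3% in KO libraries, a difference of -8.47 percentage points against -4.52 per length (exact two-sided permutation test, p = 0.1).

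**Figure D2:**
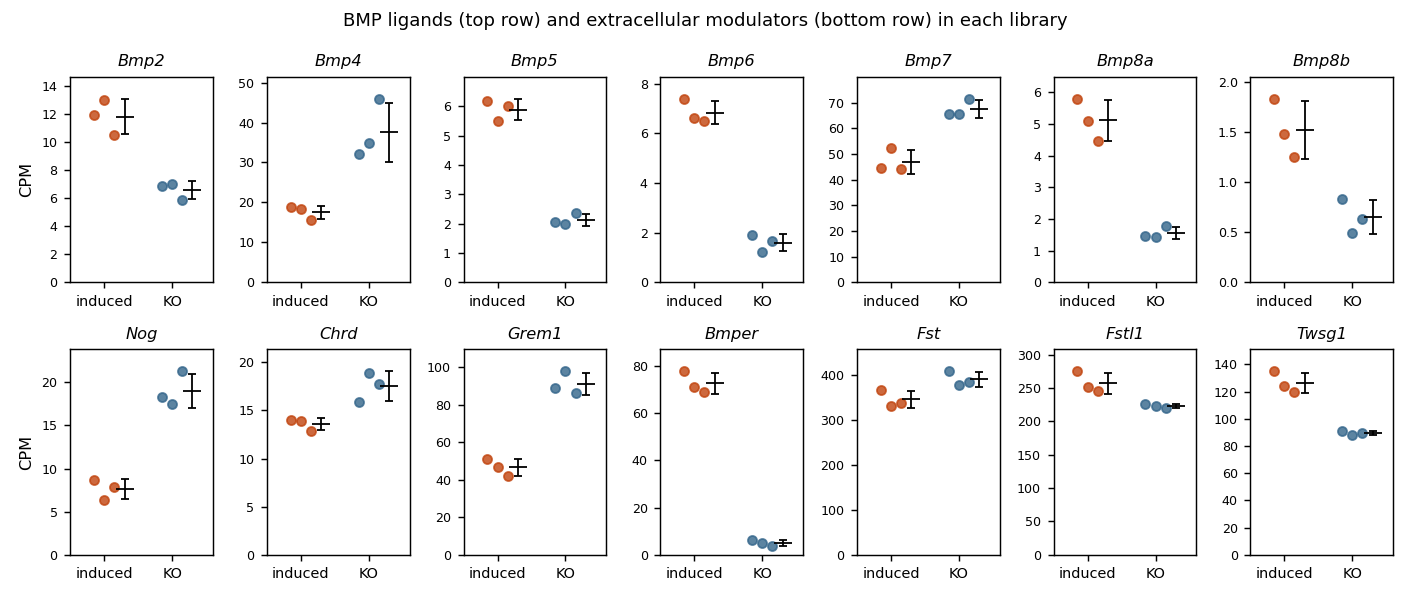
Expression in CPM (y axis, from 0) of the 7 BMP ligand genes and 7 genes of extracellular modulators in each Mixl1 induced library and each Mixl1 KO library (points), with mean and SD beside them. Bmp4, Bmp7, Nog, Chrd, Grem1 and Fst are lower in all 3 induced libraries, and the other 8 genes are higher in all 3.

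All 7 genes of extracellular modulators changed, 3 upward and 4 downward, each without overlap between the groups. Among all genes tested, 62.6% were called in either direction and 67.1% did not overlap between the groups. Nog, Chrd, Grem1 and Fst fell, and Bmper, Twsg1 and Fstl1 rose. Antagonist genes outside the members went both ways. Of 18 other modulator genes tested, described below, 7 rose, the secreted inhibitor gene Cer1 among them, and 9 fell. Bmper rose most of all 36 tested members. It encodes a secreted protein with cysteine-rich repeats that binds BMPs and can inhibit or promote signalling, as known from vascular and embryonic studies. Its gene (ENSMUSG00000031963.8) spans chromosome 9 from 23223076 to 23485200 on the plus strand of GRCm38, the mm10 assembly. Bmper measured 77.6, 71.1 and 69.1 CPM in induced libraries and 6.44, 4.79 and 3.90 CPM in KO libraries, 14.3-fold higher (log2 fold change 3.84, SE 0.11, edgeR adjusted p = 1.71e-15). The group totals behind it were 4119 and 293 reads.

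Nog encodes noggin, a BMP antagonist of the node and notochord. It measured 8.68, 6.40 and 7.92 CPM in induced libraries, against 18.3, 17.5 and 21.3 CPM in KO libraries (log2 fold change -1.30, SE 0.11, edgeR adjusted p = 1.7e-09). Grem1, which encodes the antagonist gremlin, measured 51.0, 46.6 and 42.0 CPM in induced libraries and 88.9, 97.7 and 86.3 CPM in KO libraries (log2 fold change -0.96, SE 0.066, edgeR adjusted p = 1.07e-10). Chordin and follistatin changed less. Chrd averaged 13.6 ± 0.607 CPM in induced libraries and 17.5 ± 1.54 CPM in KO libraries, and Fst averaged 345.6 ± 19.1 CPM and 389.9 ± 15.7 CPM (SD, n = 3 each; log2 fold changes -0.36 and -0.17, edgeR adjusted p = 0.00177 and 0.00346). Follistatin binds activins more tightly than BMPs, and the deposited counts do not show protein.

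Twsg1 and Fstl1 rose. Twisted gastrulation forms a complex with chordin and BMPs and can favour or hinder signalling, and Twsg1 averaged 126.4 ± 7.57 CPM in induced libraries and 89.5 ± 1.59 CPM in KO libraries (SD, n = 3 each; log2 fold change 0.50, edgeR adjusted p = 1.9e-08). Fstl1, a follistatin-like glycoprotein gene, had a log2 fold change of 0.21 (SE 0.048, edgeR adjusted p = 0.000635). Per length, the sum over the 7 modulator genes was 177.9 to 197.9 RPKM in induced libraries and 182.5 to 188.5 RPKM in KO libraries, so the ranges overlapped while the make-up differed. Bmper supplied 8.11 ± 0.0776% of the sum in induced libraries and 0.564 ± 0.134% in KO libraries, while Grem1 supplied 6.06 ± 0.312% and 11.9 ± 0.877% and Nog 2.44 ± 0.292% and 6.08 ± 0.681% (SD, n = 3 each). Fst led in both groups with 40.7% in induced libraries and 46.0% in KO libraries (exact two-sided permutation test, p = 0.1, the smallest possible; 0.18 adjusted over 9 families).

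Because the cells had been grown on fibroblast feeders, markers of other cell types were read beside these genes. Of 12 fibroblast markers, 3 were called higher and 6 lower in induced libraries, and their summed level was 667.8 to 854.7 CPM in induced libraries and 877.1 to 1039 CPM in KO libraries. None was at 0. The defining macrophage markers, 8 of 8 of which were lower, summed to 18.5 to 22.9 CPM in induced libraries and 67.1 to 98.3 CPM in KO libraries. Of 8 visceral endoderm markers 3 had enough reads to be tested, of which 1 was lower and none higher, with a sum of 2.86 to 2.99 CPM in induced libraries and 3.05 to 4.57 CPM in KO libraries, and Ttr was at 0 in all. Of 8 trophoblast markers 6 were tested, of which 2 were higher and 3 lower (151.6 to 160.7 CPM in induced libraries, 396.5 to 464.7 CPM in KO libraries), and of 6 extraembryonic and lateral mesoderm markers 4 were higher and 2 lower, Bmp4 being one of them (240.9 to 297.9 CPM in induced libraries, 143.5 to 163.8 CPM in KO libraries). The trophoblast sums differed mainly through Cdx2 and Tfap2c. Cdx2 averaged 13.2 CPM in induced libraries and 180.3 CPM in KO libraries, and Tfap2c 39.5 and 145.4 CPM. Gcm1 also fell, Krt7 and Hand1 rose, and Eomes was not called. Most of the mesoderm sum came from Ahnak, at 204.4 ± 28.3 CPM in induced libraries and 98.3 ± 7.28 CPM in KO libraries (SD, n = 3 each). Of the mesoderm markers, Postn also stands in the fibroblast list and Hand1 in the trophoblast list. The part of these cell types in the values of Bmp4, Grem1, Fst and the other members was not tested.

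All 5 receptor genes were higher in induced libraries, each without overlap between the groups. Among all genes tested, 31% were called higher, and 33.3% had all 3 induced libraries above all 3 KO libraries. Acvr1, which encodes the type I receptor ALK2 used by BMP6 and BMP7, had the largest rise, with 52.9, 49.5 and 48.7 CPM in induced libraries and 25.4, 28.2 and 25.4 CPM in KO libraries (log2 fold change 0.94, SE 0.066, edgeR adjusted p = 4.09e-11). Bmpr1a, the type I receptor gene required for gastrulation in the mouse, measured 172.6, 167.7 and 168.1 CPM in induced libraries and 145.7, 142.8 and 149.6 CPM in KO libraries (log2 fold change 0.21, SE 0.044, edgeR adjusted p = 0.000233). The other type I receptor gene, Bmpr1b, was scarce, with 111 reads in the induced group and 64 in the KO group (log2 fold change 0.82, SE 0.26, edgeR adjusted p = 0.00855). Without KO replicate 2 its call was lost (log2 fold change 0.60, edgeR adjusted p = 0.056; 0.00389 to 0.056 over all alternatives).

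The type II receptor genes rose more modestly. Bmpr2, specific for BMPs and related GDFs, averaged 52.1 ± 5.01 CPM in induced libraries and 39.5 ± 1.01 CPM in KO libraries (SD, n = 3 each; log2 fold change 0.40, edgeR adjusted p = 2.18e-05). Acvr2a, shared with activins and NODAL, averaged 25.5 ± 0.298 CPM in induced libraries and 20.9 ± 1.78 CPM in KO libraries (SD, n = 3 each; log2 fold change 0.28, edgeR adjusted p = 0.00315). Among type I receptors Bmpr1a held 71.3 ± 0.534% of the RPKM sum in induced libraries and 80.3 ± 1.11% in KO libraries (SD, n = 3 each; exact two-sided permutation test, p = 0.1, 0.18 adjusted), and Acvr1 held 27.8% and 19.0%. Per length, the order was Bmpr1a, Acvr1 and Bmpr1b in both groups, each separated from the next, and Acvr2a stood above Bmpr2 in both. The order of the type II genes rests on their exon lengths, 5686 bases for Acvr2a and 17983 for Bmpr2. Without division by length Bmpr2 made up 67.1% of the pair's CPM in induced libraries and 65.5% in KO libraries.

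**Figure D3:**
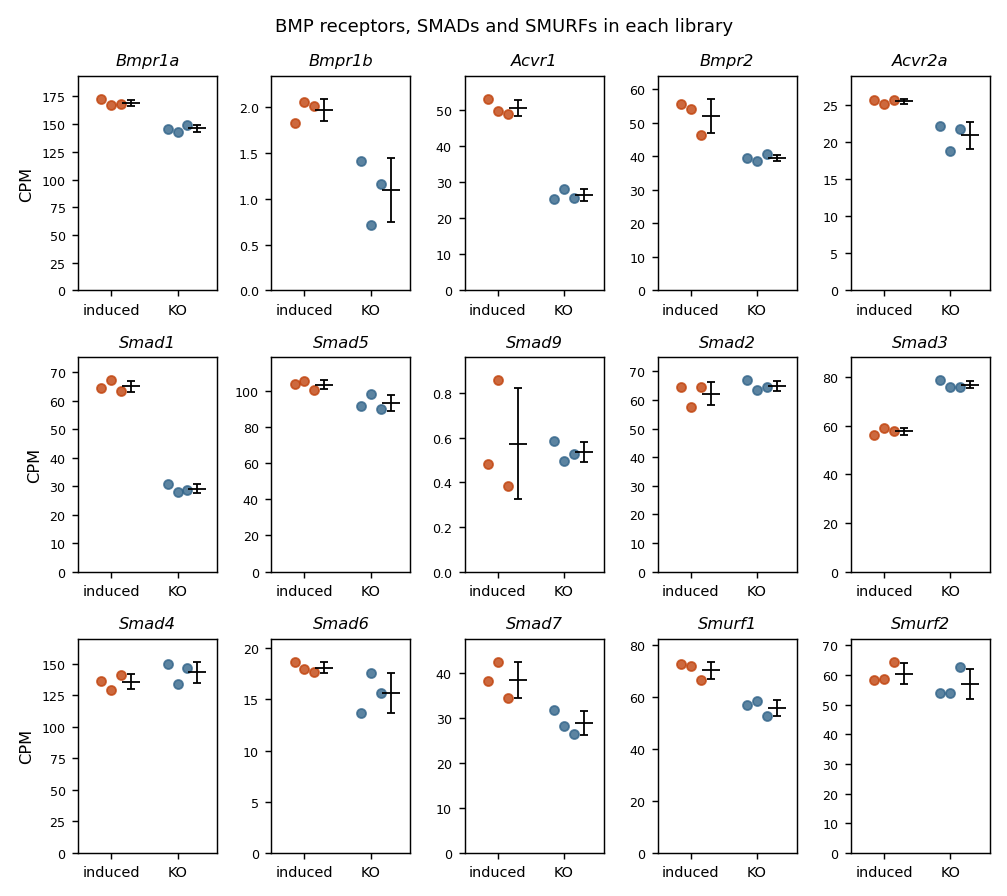
Expression in CPM (y axis, from 0) of 5 receptor genes, 8 SMAD genes and 2 SMURF genes in each Mixl1 induced and Mixl1 KO library (points), with mean and SD beside them. Smad1 shows the widest gap, with 63.6 to 67.1 CPM in induced libraries and 27.8 to 30.7 CPM in KO libraries, and Smad3 is lower in all 3 induced libraries.

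Of the SMAD and SMURF genes, 9 of 10 were tested, 4 rose and 1 fell, so that 55.6% were called, against 62.6% of all genes tested. Smad1, a direct substrate of BMP type I receptors, measured 64.3, 67.1 and 63.6 CPM in induced libraries, against 30.7, 27.8 and 28.7 CPM in KO libraries (log2 fold change 1.16, SE 0.060, edgeR adjusted p = 2.04e-13). The induced libraries were thus all more than double the KO libraries. Smad5, its close relative with overlapping function, averaged 103.4 ± 2.46 CPM in induced libraries and 93.3 ± 4.60 CPM in KO libraries (SD, n = 3 each; log2 fold change 0.15, edgeR adjusted p = 0.0129). That call was lost without KO replicate 1 (edgeR adjusted p = 0.0697, log2 fold change 0.13) or KO replicate 3 (edgeR adjusted p = 0.0565, log2 fold change 0.12), within 0.00446 to 0.0697 over all alternatives. Smad9, the third of this group, had 32 reads in the induced group and 31 in the KO group and was not tested; the ratio was 1.05 (exact binomial 95% interval 0.622 to 1.78, counting error only).

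Per length, Smad5 was the most abundant BMP receptor SMAD in every library, but Smad1 came closer to it in induced cells. Smad1 held 42.1%, 42.7% and 42.7% of the RPKM sum in induced libraries and 28.3%, 25.0% and 27.3% in KO libraries. The share of Smad5 was 57.1 ± 0.433% in induced libraries and 72.6 ± 1.77% in KO libraries (SD, n = 3 each; exact two-sided permutation test, p = 0.1, 0.18 adjusted). The sum of the group was 23.8 to 25.1 RPKM in induced libraries and 16.8 to 17.8 RPKM in KO libraries.

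Of the SMADs of the activin and NODAL branch, Smad3 fell and Smad2 did not pass. Smad3 measured 56.3, 59.0 and 57.8 CPM in induced libraries and 78.6, 75.9 and 75.9 CPM in KO libraries (log2 fold change -0.41, SE 0.052, edgeR adjusted p = 3.93e-07). Smad2 had a log2 fold change of -0.06 (SE 0.057, edgeR adjusted p = 0.357), and its libraries overlapped. Smad3 held 59.5 ± 2.09% of the pair's RPKM sum in induced libraries and 65.2 ± 0.209% in KO libraries (SD, n = 3 each; exact two-sided permutation test, p = 0.1, 0.18 adjusted). Smad4, the common partner of both branches and the most abundant SMAD gene per length, averaged 135.7 ± 5.94 CPM in induced libraries and 143.3 ± 8.40 CPM in KO libraries (SD, n = 3 each; log2 fold change -0.08, edgeR adjusted p = 0.187). It passed only without KO replicate 2 (log2 fold change -0.13, edgeR adjusted p = 0.0457; 0.0457 to 0.574 over all alternatives).

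Among the intracellular inhibitors, Smad7, which recruits SMURFs to receptors, rose to 38.4 ± 4.06 CPM in induced libraries against 28.8 ± 2.69 CPM in KO libraries (SD, n = 3 each; log2 fold change 0.41, edgeR adjusted p = 0.000191). Smad6, a feedback inhibitor more selective for BMP signals, measured 18.7, 17.9 and 17.7 CPM in induced libraries and 13.7, 17.6 and 15.6 CPM in KO libraries. It did not pass (log2 fold change 0.21, SE 0.094, edgeR adjusted p = 0.0521), although the groups did not overlap, and it passed without KO replicate 2 (log2 fold change 0.31, edgeR adjusted p = 0.0109; 0.0109 to 0.332 over all alternatives). Smurf1 encodes a ubiquitin ligase that marks SMAD1 and SMAD5 for degradation, and it rose to 70.3 ± 3.29 CPM in induced libraries against 55.9 ± 3.03 CPM in KO libraries (SD, n = 3 each; log2 fold change 0.33, edgeR adjusted p = 2.93e-05). Smurf2 had a log2 fold change of 0.09 (SE 0.064, edgeR adjusted p = 0.246), and 0.16 without KO replicate 3 (edgeR adjusted p = 0.0284; 0.0284 to 0.695 over all alternatives). The shares of Smad7 and Smurf1 in their families, and that of Bmpr2 among type II receptors, overlapped between the groups (exact two-sided permutation test, p = 0.3 each, 0.3 adjusted over 9 families).

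Of the 8 target genes among the members 7 were tested, and these were higher or did not pass. Of the 7, 6 rose (85.7%, against 31% of all genes tested) and none fell, with a median log2 fold change of 0.97. This holds for the members only: of 21 other BMP targets tested, described below, 13 rose and 6 fell. Among the target members tested, Id4 rose most. The Id genes encode helix-loop-helix proteins without a DNA-binding domain that block differentiation factors of the same class. Id4 measured 18.0, 16.9 and 16.5 CPM in induced libraries and 5.37, 5.13 and 5.79 CPM in KO libraries, 3.15-fold higher (log2 fold change 1.66, SE 0.11, edgeR adjusted p = 9.09e-12). Its exons overlap genes on the other strand, and with unstranded counts the log2 fold change was 1.57.

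Id3, the most abundant Id gene in induced cells, measured 231.2, 244.9 and 248.3 CPM in induced libraries and 178.5, 177.2 and 181.5 CPM in KO libraries (log2 fold change 0.43, SE 0.045, edgeR adjusted p = 2.49e-08). Id1 differed by less, with 135.0, 141.5 and 143.8 CPM in induced libraries and 121.5, 125.2 and 133.5 CPM in KO libraries (log2 fold change 0.14, SE 0.049, edgeR adjusted p = 0.0132). The call of Id1 was lost without KO replicate 1 (log2 fold change 0.11, edgeR adjusted p = 0.114) or induced replicate 3 (log2 fold change 0.12, edgeR adjusted p = 0.0523), within 0.00398 to 0.114 over all alternatives. Id2 measured 148.3, 151.2 and 152.8 CPM in induced libraries and 143.0, 146.5 and 148.7 CPM in KO libraries and did not pass (log2 fold change 0.05, SE 0.044, edgeR adjusted p = 0.385). Thus the scarcest Id gene had the largest fold change. By CPM Id3 led in every library. Per length, the order changed at the top: Id3, Id1, Id2 and Id4 in induced libraries (134.8, 120.8, 61.8 and 4.45 RPKM on average) and Id1, Id3, Id2 and Id4 in KO libraries (109.3, 99.98, 59.9 and 1.41 RPKM), with every neighbouring pair separated. Id3 held 41.9 ± 0.323% of the Id sum in induced libraries and 37.0 ± 0.674% in KO libraries (SD, n = 3 each; exact two-sided permutation test, p = 0.1, 0.18 adjusted).

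**Figure D4:**
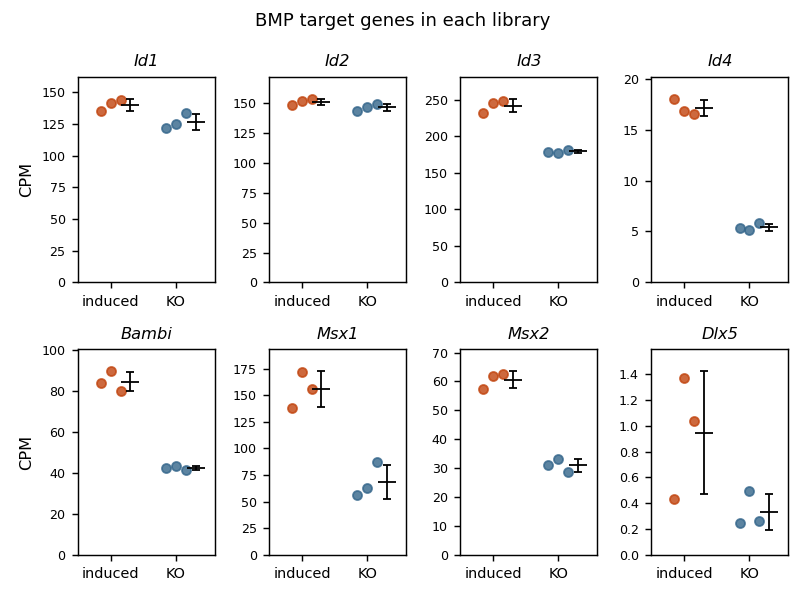
Expression in CPM (y axis, from 0) of 8 BMP target genes in each Mixl1 induced and Mixl1 KO library (points), with mean and SD beside them. Id4, Bambi, Msx1 and Msx2 are well separated, with Bambi at 80.3 to 89.7 CPM in induced libraries and 41.6 to 43.2 CPM in KO libraries, whereas Id2 and Dlx5 overlap.

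Bambi, Msx1 and Msx2 rose, without overlap between the groups. Bambi encodes a pseudoreceptor without a kinase domain that dampens BMP signalling as a feedback target, and it measured 84.2, 89.7 and 80.3 CPM in induced libraries and 42.5, 43.2 and 41.6 CPM in KO libraries (log2 fold change 1.00, SE 0.056, edgeR adjusted p = 8.33e-13). Msx2, a homeobox target gene of BMP in ectoderm and mesoderm, measured 57.3, 61.7 and 62.7 CPM in induced libraries and 31.0, 33.1 and 28.7 CPM in KO libraries (log2 fold change 0.97, SE 0.064, edgeR adjusted p = 1.52e-11). Its relative Msx1 varied more between libraries, with 138.4, 172.2 and 155.6 CPM in induced libraries and 56.1, 62.4 and 86.9 CPM in KO libraries (log2 fold change 1.18, SE 0.20, edgeR adjusted p = 0.00503). KO replicate 3 was the highest KO library for Msx1, as it was for Bmp4. Dlx5, a homeobox gene of neural plate border and limb, had 52 reads in the induced group and 19 in the KO group and was not tested; the ratio was 2.79 (exact binomial 95% interval 1.62 to 4.996, counting error only), and the libraries overlapped. With no filter on low counts it was called higher (log2 fold change 1.47, edgeR adjusted p = 0.00179).

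**Figure D5:**
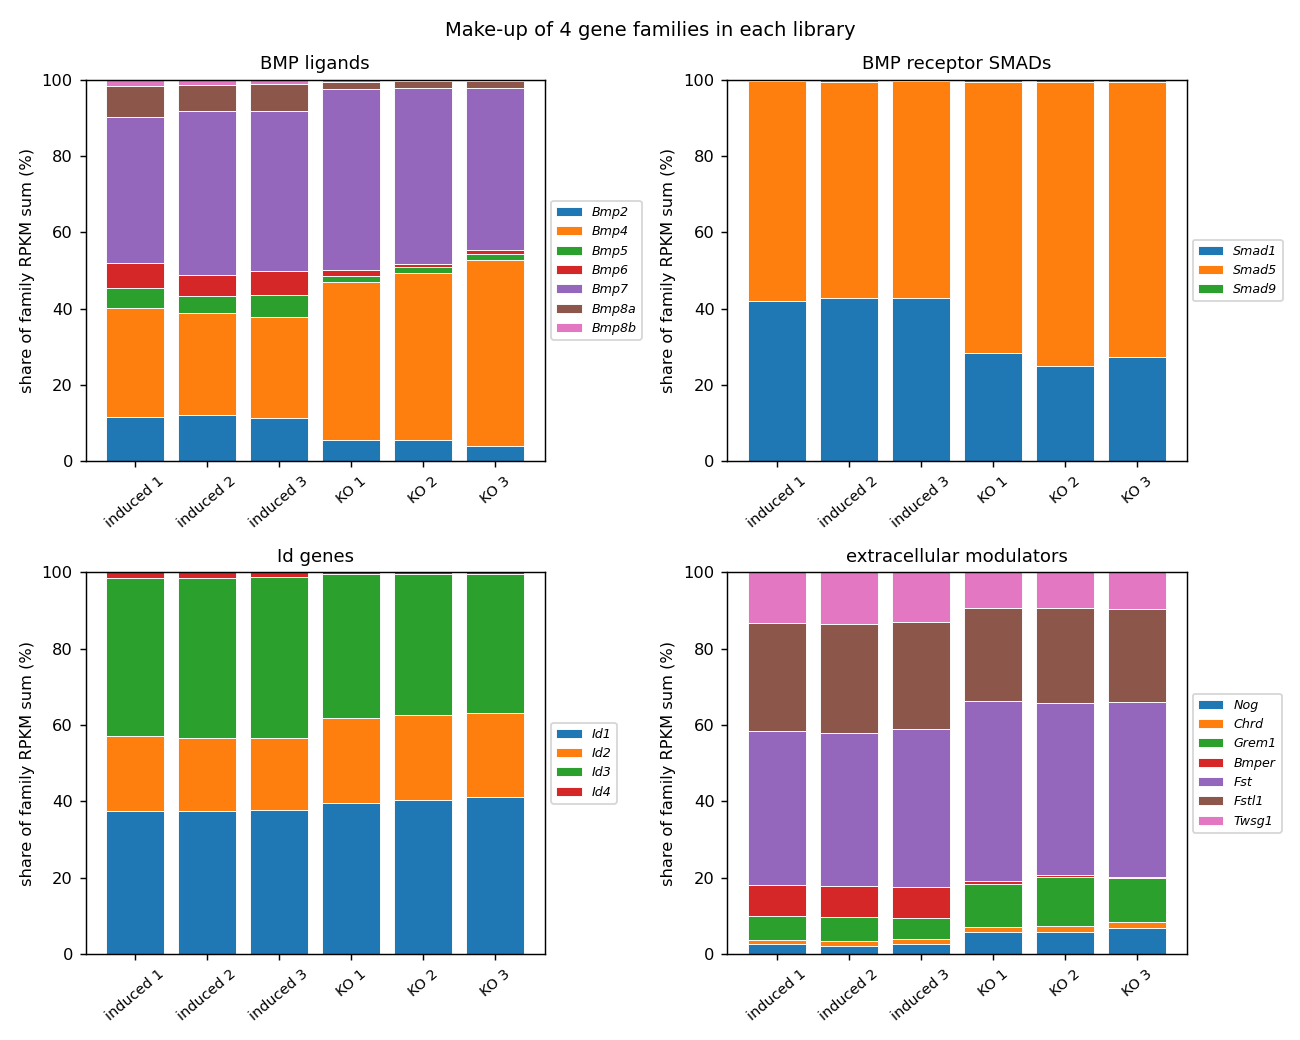
Share in percent of each gene in the RPKM sum of its family (stacked bars, y axis from 0 to 100) in the 3 Mixl1 induced libraries (left) and the 3 Mixl1 KO libraries (right), for BMP ligands, BMP receptor SMADs, Id genes and extracellular modulators. Bmp4 takes 26.6% to 28.7% of the ligand sum in induced libraries and 41.5% to 48.8% in KO libraries, and Smad1 takes 42.1% to 42.7% and 25.0% to 28.3% of its family.

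The promoters of 5 of the genes with larger changes are shown, picked after the values were seen, 3 that rose (Bmper, Id4 and Msx1) and 2 that fell (Bmp4 and Grem1), as the 250 bases before the RefSeq start site (GRCm38.p6), 5′ to 3′ on the strand of the gene. Capitals mark GGCGCC, a GC-rich sequence bound by SMAD1 and SMAD5 complexes.
Bmper (chr9:23222826-23223075, plus strand): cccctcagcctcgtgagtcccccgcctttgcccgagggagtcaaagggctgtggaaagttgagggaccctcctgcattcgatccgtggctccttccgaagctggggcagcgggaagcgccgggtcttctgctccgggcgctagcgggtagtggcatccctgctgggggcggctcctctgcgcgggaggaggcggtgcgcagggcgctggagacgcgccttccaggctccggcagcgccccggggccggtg
Id4 (chr13:48260866-48261115, plus strand): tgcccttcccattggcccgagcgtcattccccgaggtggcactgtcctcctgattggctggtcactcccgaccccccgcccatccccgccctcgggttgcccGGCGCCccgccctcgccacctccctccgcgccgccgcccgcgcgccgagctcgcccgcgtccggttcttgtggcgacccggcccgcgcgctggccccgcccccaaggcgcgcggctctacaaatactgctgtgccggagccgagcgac
Msx1 (chr5:37824586-37824835, minus strand): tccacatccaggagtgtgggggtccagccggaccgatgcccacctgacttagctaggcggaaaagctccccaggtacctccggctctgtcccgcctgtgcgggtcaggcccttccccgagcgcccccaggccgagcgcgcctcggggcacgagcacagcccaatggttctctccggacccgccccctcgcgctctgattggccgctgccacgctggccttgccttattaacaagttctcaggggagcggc
Bmp4 (chr14:46390670-46390919, minus strand): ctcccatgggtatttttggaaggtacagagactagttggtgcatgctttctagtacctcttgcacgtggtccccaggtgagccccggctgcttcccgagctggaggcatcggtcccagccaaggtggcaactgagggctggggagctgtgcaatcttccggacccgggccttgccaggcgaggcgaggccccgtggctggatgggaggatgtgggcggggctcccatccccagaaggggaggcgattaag
Grem1 (chr2:113758649-113758898, minus strand): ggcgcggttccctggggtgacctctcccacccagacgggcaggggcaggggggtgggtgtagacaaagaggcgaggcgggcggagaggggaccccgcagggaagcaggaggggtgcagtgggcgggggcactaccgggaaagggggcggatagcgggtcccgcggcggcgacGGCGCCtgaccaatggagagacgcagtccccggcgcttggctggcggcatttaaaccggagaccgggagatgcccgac
Promoter windows were found for 27 of the 38 genes, counting 31 start sites. GGCGCC, which reads the same on both strands, occurred in those of 9 genes (Bmpr1a, Bmpr2, Chrd, Grem1, Id2, Id4, Smad5, Smad9 and Smurf2), and in 9.59% of all 32851 windows. Of these 9, Chrd and Grem1 fell, Bmpr1a, Bmpr2, Id4 and Smad5 rose, Id2 and Smurf2 did not pass and Smad9 was not tested. CAGAC, the core of the SMAD box, was found on either strand in windows of 12 genes and in 42.2% of all windows. For both motifs a gene counted if any of its windows held the letters, and windows were not matched for GC content. The counts of genes are therefore not comparable with the shares of windows. TAAT followed after 3 bases by ATTA, a palindrome that paired-class homeodomains such as that of MIXL1 can bind as dimers, was found in none of the members' windows and in 0.463% of all windows; this says only that these letters are absent from these windows.

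Around the members, 102 further genes of the wider pathway were read from a list, of which 88 were tested, 32 being higher and 37 lower in induced libraries. These were 36.4% and 42.0%, against 31% and 31.6% of all genes tested. The share called in either direction was 85.7% for ligands, 88.9% for modulators and 90.5% for targets. It was 63.6% for receptors and co-receptors and 62.5% for intracellular regulators, near the 62.6% of all genes tested. Other ligands were mostly lower: of 14 tested, 9 fell and 3 rose, with a median log2 fold change of -0.42. Inhbb, an activin subunit gene, averaged 5.49 ± 0.421 CPM in induced libraries and 32.0 ± 2.04 CPM in KO libraries (SD, n = 3 each; log2 fold change -2.54, edgeR adjusted p = 6.76e-16). Gdf10, Tgfb1 and Gdf6 had log2 fold changes of -2.59, -0.51 and -1.35, while Bmp3, Gdf3 and Gdf7 rose (2.27, 0.66 and 2.88). Of 11 other receptor and co-receptor genes, 5 fell and 2 rose. Acvr1b, the type I receptor gene for activin and NODAL, averaged 68.0 ± 0.844 CPM in induced libraries and 128.9 ± 9.80 CPM in KO libraries (SD, n = 3 each; log2 fold change -0.92, edgeR adjusted p = 2.17e-12), the BMP co-receptor gene Rgmb was at -0.72 and Tgfbr2 at -0.56, and Hfe2 (1.46) and Tgfbr1 (0.13) rose.

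Of 18 other modulator genes tested, 7 rose and 9 fell. The secreted inhibitor gene Cer1 had a log2 fold change of 7.49, whereas the antagonist genes Sostdc1 and Sost (-5.74 and -5.28) and the protease gene Htra1 (-2.79) fell. Sost averaged 0.162 ± 0.0615 CPM in induced libraries and 6.41 ± 0.689 CPM in KO libraries (SD, n = 3 each; edgeR adjusted p = 3.86e-13). Intracellular regulators were split, 7 of 24 being higher and 8 lower, so that 62.5% were called, against 62.6% of all genes tested. Nedd4l, a ubiquitin ligase gene whose product acts on activated SMAD2 and SMAD3, averaged 17.1 ± 1.32 CPM in induced libraries and 60.1 ± 2.85 CPM in KO libraries (SD, n = 3 each; log2 fold change -1.81, edgeR adjusted p = 1.1e-15). Hipk2 was at 0.99, Tab1 at -0.64 and Stub1 at -0.34. Of 21 other BMP targets tested, 13 rose and 6 fell, with a median log2 fold change of 0.72. The 4 with the smallest p, Tbx20, Gata3, Tbx2 and Gata2, all rose (3.82, 3.83, 3.80 and 3.04). Of these, Tbx20 also stands in the list of extraembryonic and lateral mesoderm markers. The 6 that fell, named after their values were seen, were Cdx2, Tfap2c, Prdm1, Dlx3, Vim and Evx1 (-3.77, -1.88, -1.75, -1.11, -0.94 and -0.47). Cdx2, a caudal-type homeobox gene of posterior epiblast and trophoblast, averaged 13.2 ± 1.38 CPM in induced libraries and 180.3 ± 27.0 CPM in KO libraries (SD, n = 3 each; edgeR adjusted p = 1.16e-08), and with Tfap2c it also stands in the trophoblast list. Tbx2, a T-box repressor gene, averaged 53.6 ± 6.36 CPM in induced libraries and 3.84 ± 0.627 CPM in KO libraries (SD, n = 3 each; edgeR adjusted p = 3.87e-16).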

How the data were processed

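RNA was sequenced from 6 libraries, 3 of the Mixl1 induced and 3 of the Mixl1 KO group, grouped by sample title. The kit was stranded and selected mRNA (per the labels' protocols). The authors deposited raw read counts per gene for each library. The build mm10 and the tools STAR, bcl2fastq and DESeq2 are named in the submitters' processing notes; their versions are not stated in the sources used. The count column used held 96.2% to 96.3% of stranded gene reads; rows naming no gene, 15.1% to 17.6% of reads, were left out, and multimapped reads are absent from gene counts. The authors also deposited a DESeq2 table with, per the file headers, a mean normalised count (signal), log2 fold changes with errors, a Wald score, p-values and a −log10 of the adjusted p; only its log2 fold changes and adjusted p were used.

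Identifiers were matched to GENCODE M21 (GRCm38; 55144 of 55471). Genes passing filterByExpr were tested with edgeR 4.0.16 (R 4.3.3; TMM, robust quasi-likelihood, group as the only term, two-sided, Benjamini-Hochberg, threshold 0.05). Standard errors are the log2 fold change over the square root of F; their median was 0.084. RPKM values use the union of annotated exons. Shares of 9 families were compared by exact permutation (scipy 1.17.1). Counts were also simulated (14881 genes) with 200 genes changed and the same relative spread set for every gene. There, 42.9% of 1.25-fold, 81.6% of 1.5-fold, 90% of 2-fold and 100% of 4-fold changes were recovered. In the data 62.6% of genes tested were called and spread differed between genes, so these rates do not give the power of this comparison. All members were named. Of the other pathway genes, those named are up to 4 called genes per list with the smallest p, and the called genes against the list's majority where these were at most 3. Members, lists and rules were chosen with earlier results of these data known. The alternatives were other scalings (DESeq2 1.42.0 size factors, upper quartile), other filters, DESeq2 and limma-voom (limma 3.58.1) tests, a minimum change of 1.5-fold in the test, a threshold of 0.01, unstranded counts, a replicate term, leaving out each library, and shares without length.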

Additional observations from a re-analysis of the deposited data

How the results depend on the processing

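No member changed direction in any of 504 recomputed values of the 36 tested members (other scalings, filters, tests, unstranded counts, a replicate block, or 1 library left out), and 489 kept their side of the threshold, 9 calls being lost and 6 gained. The members whose calls were lost or gained were Bmp1, Bmpr1b, Smad5, Smad4, Smad6, Smurf2 and Id1, all with an estimated change under 2-fold. Leaving out each library gave 22 to 25 members higher and 7 to 8 lower. These counts are over all 38 members and include any that passed the filter only then. The same fits gave 8863 to 9225 genes past the threshold, and 30 to 35 other pathway genes higher and 35 to 38 lower. A test against a 1.5-fold change, which asks for a larger effect by construction, called 12 members higher and 3 lower, 18 other pathway genes higher and 17 lower, and 2830 genes in all. Without length in the shares, the difference of induced minus KO became -8.47 percentage points for Bmp7, -7.78 for Bmpr1a and -6.96 for Fst, against -4.52, -9.05 and -5.32 with it.

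Same-numbered replicates of the groups did not deviate together (correlations of -0.0026, 0.0463 and 0.0398). These values cannot show whether a replicate number marks a shared culture or day, which the labels do not state. With the replicate block, 25 members were higher and 7 lower and 9647 genes passed; the member gained was Smad6 (log2 fold change 0.22, edgeR adjusted p = 0.0428). It also passed with limma-voom (adjusted p = 0.0462) and unstranded counts (edgeR adjusted p = 0.0438), within 0.0109 to 0.332 over all alternatives. In the authors' deposited table all 36 tested members had the same direction and side of the threshold, with log2 fold changes within 0.0861 of those given here. Depth limits Smad9, Dlx5, Bmp8b and Bmpr1b.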
